A study of Mus musculus with 9 samples.

Results

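Total RNA of immortalized mouse macrophages was compared between 60 and 30 min of lipopolysaccharide (LPS), the outer-membrane component of Gram-negative bacteria. The comparison uses 6 of the 9 libraries of the series, all 3 taken at 60 min and all 3 taken at 30 min, chosen by their labelled time, and covers every gene in the count table. The cell line is named IMM and its genotype is given as WT. Cells of both groups received LPS at 100 ng per mL in complete DMEM, with no other agent, 5 passages after thawing, and were chilled on ice before lysis. The 3 libraries at 0 min, from the same line with no treatment, served as the starting level. The design text calls the libraries of a time biological replicates. The series holds no library kept for 30 or 60 min without LPS, so LPS, handling and elapsed time cannot be told apart, and how the line was immortalized is not given in the sources used here. Values of 3 libraries are given below in the order of replicates 1, 2 and 3, and CPM are counts scaled to a common library total.

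The 6 libraries held 27624983 to 30402306 counts, at which a count of 10 was worth 0.339 to 0.361 CPM. The macrophage genes Csf1r, Adgre1, Cd68, Lyz2 and Itgam summed to 1730 to 1760 CPM at 30 min and 1720 to 1800 CPM at 60 min, which fits the labelled cell type. Markers of other cells were low at both times, with sums of 3.64 to 4.04 CPM at 30 min and 2.96 to 3.17 CPM at 60 min for T cells (mostly the kinase gene Lck, which was not called, while Cd3e and Cd8a had 0), 5.58 to 6.45 CPM for neutrophils (Csf3r, while Ly6g and S100a9 had 0) and 0.197 to 0.593 CPM for B cells. Dendritic cell markers, led by Batf3, summed to 16.5 to 18.6 CPM at 30 min and 13.7 to 15.4 CPM at 60 min, and 1 of the 3 tested, Zbtb46, was called lower (log2 change -0.37). The 5 mast cell markers had 0 in both groups, and the part of these cells in the results below was not tested. Protein-coding genes took 84.2% ± 0.527 of the counts at 30 min and 83.6% ± 0.611 at 60 min (SD, n = 3 each), a difference within the spread (two-sided exact permutation p = 0.3, where 0.1 is the smallest possible). Among the 30 min libraries, replicate 1 lay nearest to the 60 min libraries, at 9.2 on the first principal component against 0.2 and 1.5 for the other two and 27.9 to 31.7 for the 60 min libraries. It was the highest 30 min library for 751 of the 1263 genes that were higher at 60 min, and leaving it out moved the log2 change of 36 of the 217 named genes by more than 0.2. The change became larger in 35 of these and smaller in Csf3 (4.05 to 3.67), and it moved by over 1.5-fold in Il1a (2.44 to 3.04) and Mefv, the pyrin gene (2.60 to 3.46, at about 1 CPM).

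LPS binds the receptor Tlr4 with its partners Cd14 and Ly96, and the adaptors Myd88 and Ticam1 pass the signal to MAP kinases and to the transcription factor NF-kB. Immediate-early genes, which need no new protein to be switched on, are transcribed within minutes, and many of their mRNAs carry AU-rich elements in the 3' untranslated region that mark them for rapid decay. Later genes need more time because their promoters must be remodelled, because they depend on proteins made by the first genes, or because the gene itself is long and takes time to transcribe. The step from 30 to 60 min therefore covers transcripts that are already being shut off, transcripts that are still accumulating and transcripts that start to rise.

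Of 14246 genes tested with edgeR's quasi-likelihood test at a Benjamini-Hochberg adjusted p under 0.05, 1263 (8.87%) were higher and 1090 (7.65%) were lower at 60 than at 30 min. Most changes were small, with a median absolute log2 change of 0.419 for the higher and 0.311 for the lower genes. At least 2-fold changes were found in 234 genes that rose (1.64%) and 115 that fell (0.807%). Coding genes made up 126 of these 234 rises but only 17 of these 115 falls. The other 108 and 98 loci are called non-coding here and below, which means only that they were not annotated as protein-coding. Of these loci, 58 and 61 had the annotated type TEC, which leaves their coding status open. A further 11 and 13 were annotated as processed pseudogenes. The 60 min libraries lay above every 30 min library for 2430 genes (17.1%) and below every 30 min library for 2382 genes (16.7%). Higher genes were 53.7% of all calls, and 37.5% when libraries were scaled by total counts alone (1005 higher, 1672 lower), a scaling that moved the median log2 change of all genes from 0.001 to -0.041. Without 30 min replicate 1, 1176 genes were higher and 959 lower, and 272 rose and 118 fell by at least 2-fold.

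The first 30 min of LPS had raised 689 genes (4.84%) and lowered 477 (3.35%). Of the 201 genes that had risen at least 2-fold by 30 min, 95 rose further, 33 fell and 73 were not called in either direction by 60 min. Among the 125 protein-coding genes of this set, 83 rose further, 8 fell and 34 were not called. The 33 that fell are described as shut off, and the 95 as growing. A further 136 genes (60 protein-coding) were not called at 30 min and then rose at least 2-fold, described as second-step rises, and 93 genes (13 protein-coding) were not called at 30 min and then fell at least 2-fold. These courses were sorted with the 30 min libraries in both steps, so the values that define them are a description. Without 30 min replicate 1 the 4 sets held 30, 87, 163 and 98 genes.

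Of the 33 shut-off genes 17 had a mean of at least 5 CPM, and 7 of these were protein-coding: Fos, Rgs1, Klf2, Zfp36, Ier2, Osm and Fabp4. The eighth protein-coding gene, March4, was expressed below 2 CPM. Fos (ENSMUSG00000021250.13, chr12:85473890-85477273, plus strand of GRCm38), a subunit of the AP-1 transcription factor, had 6.82, 7.27 and 7.75 CPM at 0 min and 203, 187 and 199.7 CPM at 30 min. At 60 min it had 43.4, 69.8 and 57.3 CPM. All 3 of its 60 min libraries lay below all 3 of the 30 min libraries and above all 3 of the 0 min libraries. The mean fell from 197 ± 8.54 to 56.8 ± 13.2 CPM (SD, n = 3 each), 28.9% of the 30 min level (log2 change -1.79, SE 0.11, edgeR adjusted p = 8.41e-08).

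Rgs1 (chr1:144242296-144249242, minus strand), which speeds up the switching-off of G proteins below chemokine receptors, had 44.1, 46.8 and 46.0 CPM at 0 min, 118, 142 and 141 CPM at 30 min and 44.4, 52.4 and 43.3 CPM at 60 min. Its 60 min values were back in the range of the 0 min values, and they did not overlap with those at 30 min (log2 change -1.52, SE 0.08, edgeR adjusted p = 2.24e-08). Klf2 (chr8:72319033-72321656, plus strand), a zinc-finger factor known to restrain inflammatory gene expression, had 8.65, 9.00 and 10.5 CPM, then 21.0, 23.5 and 22.4 CPM, then 13.2, 14.4 and 13.1 CPM. It kept 60.9% of its 30 min level (log2 change -0.72, SE 0.08, edgeR adjusted p = 2.2e-05).

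Zfp36 encodes tristetraprolin, the protein that binds AU-rich elements and starts the decay of Tnf and other cytokine mRNAs. It had 50.9, 55.5 and 45.7 CPM at 0 min, 550.2, 475 and 474 CPM at 30 min and 249.5, 357 and 334 CPM at 60 min. The fall was larger than the spread in each group (log2 change -0.67, SE 0.10, edgeR adjusted p = 0.000414), and all 60 min libraries stayed far above 0 min. Ier2, a small nuclear immediate-early protein, had 53.3, 48.4 and 49.1 CPM at 30 min and 27.1, 34.8 and 32.8 CPM at 60 min (log2 change -0.67, SE 0.08, edgeR adjusted p = 3.74e-05).

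Osm, encoding the cytokine oncostatin M of the interleukin-6 family, had 75.7, 60.1 and 62.7 CPM at 30 min and 40.4, 53.4 and 42.5 CPM at 60 min. It was the only member of the cytokine list that fell (log2 change -0.54, SE 0.10, edgeR adjusted p = 0.0018). Fabp4, a fatty-acid-binding protein of macrophages and fat cells, had 82.3, 88.6 and 85.6 CPM and then 64.6, 67.2 and 63.9 CPM, a smaller step (log2 change -0.39, SE 0.06, edgeR adjusted p = 0.000347) that still left it above its 30.8 to 38.3 CPM at 0 min. Over all 33 shut-off genes, 24 were still called higher at 60 min than at 0 min. The 60 and 30 min libraries did not overlap in 32. Over all tested genes, 13.3% were higher at 60 than at 0 min. In 16.7% the 60 min libraries lay below every 30 min library. The 33 genes were chosen by their calls in these same libraries, so both counts are in part set by that choice.

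**Figure D1:**
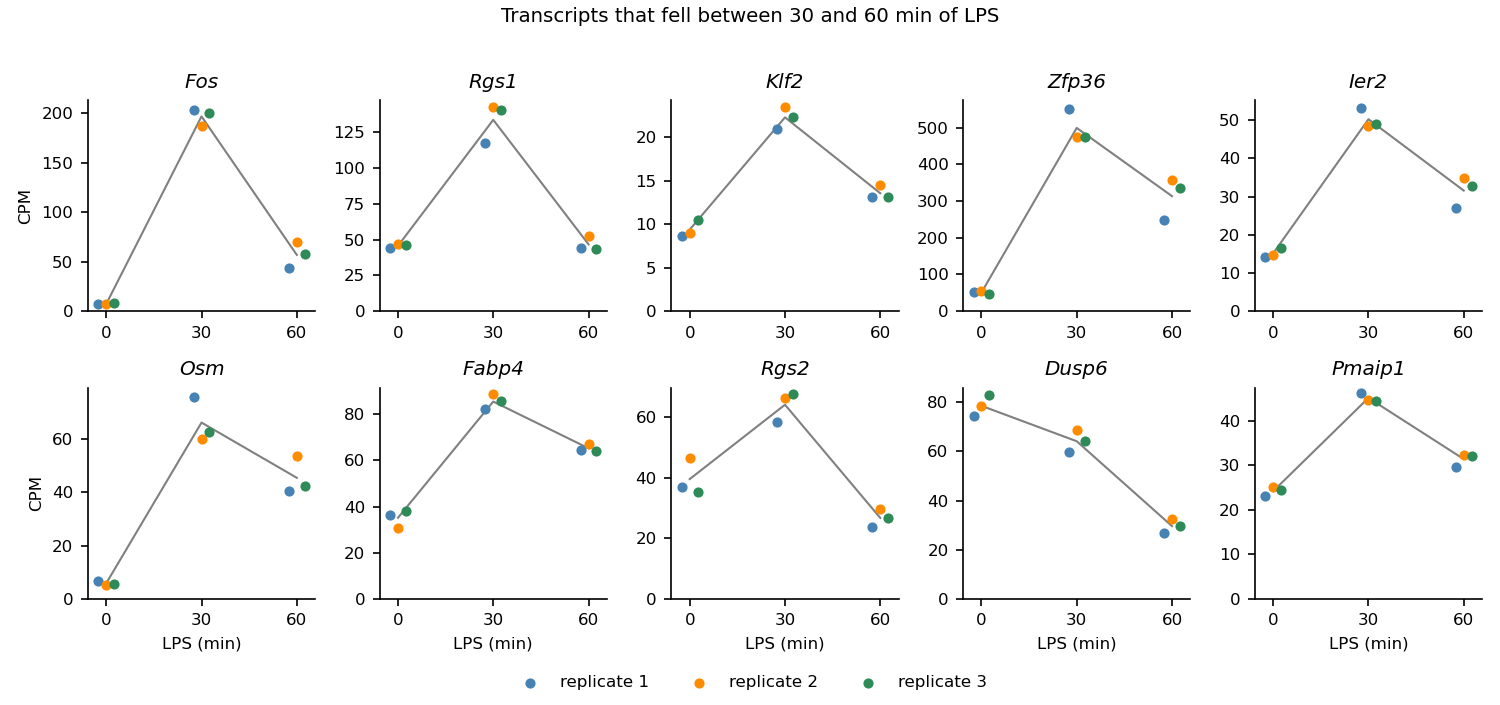
CPM of 10 protein-coding genes that were lower at 60 than at 30 min of LPS, in each library (points, coloured by replicate number) at 0, 30 and 60 min, with grey lines through the means of 3 libraries. Fos and Rgs1 rose by 30 min and had lost most or all of that rise at 60 min, while Dusp6 stepped down at both times; Zfp36, Ier2, Osm and Fabp4 kept part of the rise.

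Copies of the 7-base AU-rich sequence TATTTAT were counted in the annotated 3' untranslated regions, since this sequence is part of the sites tristetraprolin binds. It was present in 5 of the 8 protein-coding shut-off genes (62.5%) and in 45 of 82 growing genes with an annotated region (54.9%), against 3106 of 11174 of all tested coding genes (27.8%). Of the 60 protein-coding second-step genes 15 (25.0%) had it, and of the 13 that fell without an earlier rise 2 (15.4%). Regions with at least 2 copies were found in 3 of 8 shut-off genes (37.5%), 29 growing genes (35.4%), 7 second-step genes (11.7%) and 9.46% of all. These shares are descriptions, they rest on few genes in the shut-off set, and a copy shows a match of letters and not a working site. The sites of the 5 shut-off genes are shown because their mRNAs fell while the growing mRNAs, which carried the sequence about as often, rose. Each line gives 30 bases of the transcribed strand, 5' to 3', written as DNA, with TATTTAT in capitals.
Fos (GRCm38, chr12:85477103-85477132, plus strand): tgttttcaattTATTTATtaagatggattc
Rgs1 (chr1:144243181-144243210, minus strand): taaatgtttatTATTTATtacttgaagatt
Klf2 (chr8:72320988-72321017, plus strand): aaacagactgcTATTTATtggaccttagga
Zfp36 (chr7:28376958-28376987, minus strand): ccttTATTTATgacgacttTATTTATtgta
Osm (chr11:4240945-4240974, plus strand): ttttaTATTTATaaggccTATTTATaatgt
The whole regions held 2 copies in Fos (815 bases), 3 in Zfp36 (774 bases) and Osm (1017 bases), and 1 each in Rgs1 (3006 bases) and Klf2 (737 bases). The regions of Ier2, Fabp4 and March4 held no copy.

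The span of the gene from start to end is given as a description with no test. The 8 coding shut-off genes had a median span of 3.98 kb with 2.5 introns and the 83 growing genes 9.34 kb with 4 introns, against 23.3 kb and 8 introns over all 11313 coding genes tested. Second-step genes had 23.8 kb and 7.5 introns, close to the whole set. The 17 coding genes that fell at least 2-fold had a median of 4.7 kb and 3 introns.

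Promoter sequence is shown for 2 shut-off and 2 second-step genes, those with the largest change at 60 against 30 min among coding genes with a mean of at least 5 CPM and an entry in RefSeq (GRCm38.p6), so that the start regions of genes with opposite courses can be read side by side. Each line holds the 250 bases before the start site on the gene's strand, 5' to 3', in lower case with matches to the searched motifs in capitals.
Fos (shut off, chr12:85473640-85473889, plus strand): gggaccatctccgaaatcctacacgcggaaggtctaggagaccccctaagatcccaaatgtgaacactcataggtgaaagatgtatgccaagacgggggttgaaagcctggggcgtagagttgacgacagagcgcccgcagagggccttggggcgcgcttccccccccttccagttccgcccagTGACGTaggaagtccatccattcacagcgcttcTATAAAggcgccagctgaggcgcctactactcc
Klf2 (shut off, chr8:72318812-72319061, plus strand): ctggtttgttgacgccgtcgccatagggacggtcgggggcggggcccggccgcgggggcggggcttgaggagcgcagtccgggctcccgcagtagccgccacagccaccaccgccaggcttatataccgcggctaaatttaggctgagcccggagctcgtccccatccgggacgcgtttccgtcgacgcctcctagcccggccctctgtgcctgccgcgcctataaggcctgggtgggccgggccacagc
Icosl (second step, chr10:78069118-78069367, plus strand): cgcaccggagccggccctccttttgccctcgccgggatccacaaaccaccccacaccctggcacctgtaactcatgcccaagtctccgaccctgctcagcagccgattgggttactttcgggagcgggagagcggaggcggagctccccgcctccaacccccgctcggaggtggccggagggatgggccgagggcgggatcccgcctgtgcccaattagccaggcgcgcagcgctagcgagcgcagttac
Bbs10 (second step, chr10:111298429-111298678, plus strand): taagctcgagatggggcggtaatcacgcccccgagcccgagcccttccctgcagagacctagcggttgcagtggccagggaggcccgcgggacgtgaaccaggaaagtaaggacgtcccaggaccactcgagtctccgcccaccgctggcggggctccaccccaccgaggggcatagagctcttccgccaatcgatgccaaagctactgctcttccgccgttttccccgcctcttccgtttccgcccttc
The Fos window held the core of a cyclic-AMP response element, TGACGT, beginning at position -66 from the start and the TATA box TATAAA at position -33. The other 3 windows held no match to the motifs searched. Motifs were searched on both strands in 300-base windows (250 bases before to 50 after the start), which were matched for 8920 of 11313 coding genes tested, 64 of 83 growing, 44 of 60 second-step and 3 of 8 shut-off genes.

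The NF-kB motif, GGG followed by any 2 bases and TTTCC, was found in 5 of 64 growing genes (7.81%) and 1 of 44 second-step genes (2.27%), against 1.7% of all windows. The AP-1 motif TGANTCA was found in 5 growing genes (7.81%) and 7 second-step genes (15.9%), against 4.6% of all. A TATA box TATAAA was present in 11 growing genes (17.2%) and 6 second-step genes (13.6%), against 6.65%. The interferon-response motif, a pair of GAAA separated by any 2 bases, was present in 6 growing genes (9.38%) and 2 second-step genes (4.55%), against 3.12%, and the TGACGT core, which the full element TGACGTCA contains, in 11 (17.2%) and 2 (4.55%), against 12.6%. TGACGTCA itself was in 2 growing genes (3.12%) and 2 second-step genes (4.55%), against 3.44%, and the CArG box, the site of serum response factor, in 1 growing gene (1.56%), against 1.23%. A share over 44 or 64 windows moves by about 2 percentage points with each gene, and none of these shares was tested.

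Falls from 30 to 60 min were not limited to genes that had first risen strongly. Rgs2, a relative of Rgs1 that acts on Gq proteins, had 37.0, 46.5 and 35.3 CPM at 0 min, 58.6, 66.3 and 67.6 CPM at 30 min and 23.8, 29.8 and 26.7 CPM at 60 min. All 60 min libraries thus lay below all 0 min libraries as well as below all 30 min libraries (60 against 30 min: log2 change -1.26, SE 0.10, edgeR adjusted p = 7.03e-07). Dusp6, the cytoplasmic phosphatase that switches off the MAP kinase ERK, had 74.3, 78.3 and 83.1 CPM, then 59.7, 68.5 and 64.2 CPM, then 26.6, 32.5 and 29.7 CPM. Its fall from 30 to 60 min had a log2 change of -1.12 (SE 0.07, edgeR adjusted p = 9.41e-08). Pmaip1, which encodes the pro-apoptotic protein Noxa, went from 46.2, 44.6 and 44.5 CPM to 29.6, 32.4 and 32.2 CPM (log2 change -0.52, edgeR adjusted p = 4.59e-06).

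Other genes among the largest falls were at lower levels and had changed little by 30 min. Zswim3 had 13.8, 15.3 and 16.3 CPM at 30 min and 8.31, 8.34 and 7.13 CPM at 60 min (log2 change -0.93). Napb, a component of the machinery that recycles vesicle-fusion complexes, fell by 0.90 on the log2 scale, Sema4c, a semaphorin of the cell surface, by 0.88, and Cnr2, the cannabinoid receptor of immune cells, by 0.80. The ceramide synthase gene Cers4 fell by 0.70 and the activating receptor gene Cd300lb by 0.68, from 19.0, 19.1 and 19.2 CPM to 11.6, 12.6 and 11.6 CPM. In all of these genes the 3 libraries at 60 min lay below the 3 at 30 min.

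The largest rises among genes with a mean of at least 5 CPM were in Acod1, Cd40, Il1a, Traf1 and Nod2. Acod1, the enzyme that makes the antimicrobial metabolite itaconate, had 1.50, 1.37 and 2.04 CPM at 0 min, 23.0, 10.8 and 11.7 CPM at 30 min and 146, 119.8 and 138 CPM at 60 min. The 8.84-fold step from 30 to 60 min (log2 change 3.14, SE 0.18, edgeR adjusted p = 5.59e-08, and 3.58 without 30 min replicate 1) was far beyond the spread in either group. Cd40, the co-stimulatory receptor for T-cell help, had 10.2, 5.38 and 5.45 CPM at 30 min and 44.6, 35.7 and 40.7 CPM at 60 min (log2 change 2.52, SE 0.18, edgeR adjusted p = 2.78e-07, and 2.90 without that library). Nod2, the cytosolic sensor of bacterial muramyl dipeptide, had 10.2, 6.87 and 6.50 CPM and then 42.3, 32.6 and 36.3 CPM (log2 change 2.24). In each of these genes 30 min replicate 1 was the highest of its group, and it still lay well below every 60 min library.

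Il1a, encoding the alarm cytokine interleukin-1 alpha, had 26.8, 9.71 and 11.3 CPM at 30 min and 92.8, 79.9 and 87.6 CPM at 60 min. Its log2 change was 2.44 (SE 0.24, edgeR adjusted p = 6.33e-06), and 3.04 without 30 min replicate 1. Traf1, an NF-kB target that binds receptors of the tumour necrosis factor family, rose from 16.8, 7.80 and 8.38 to 59.0, 55.6 and 56.3 CPM (log2 change 2.37, and 2.82 without that library). Pde4b, a phosphodiesterase that breaks down cyclic AMP, rose from 92.4, 44.8 and 49.8 to 240.3, 217 and 238 CPM (log2 change 1.89, and 2.29 without it). In all of these the groups did not overlap, and the steps were larger without that library.

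Among the transcription regulators with large rises, Prdm1, a repressor known from B-cell and macrophage differentiation, had 4.30, 2.71 and 3.25 CPM at 30 min and 14.7, 14.1 and 15.2 CPM at 60 min (log2 change 2.10). Nr4a3, an orphan nuclear receptor, rose by a log2 change of 1.55 to 12.2 ± 1.38 CPM, and Maff, a small Maf protein, by 1.54 to 46.9 ± 1.66 CPM (SD, n = 3 each). Gadd45a, a stress sensor that binds cell-cycle and MAP kinase proteins, had 3.67, 2.46 and 3.11 CPM and then 15.2, 13.4 and 13.8 CPM, a 4.59-fold rise. The acute-phase gene Saa3 rose by a log2 change of 1.99 and the chemokine gene Cxcl10 by 1.95, the latter from 33.7, 24.1 and 26.6 to 117, 100.1 and 108 CPM. Csf1, encoding the growth factor of macrophages themselves, rose from 31.1, 23.2 and 22.6 to 84.9, 73.3 and 90.6 CPM (log2 change 1.70).

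**Figure D2:**
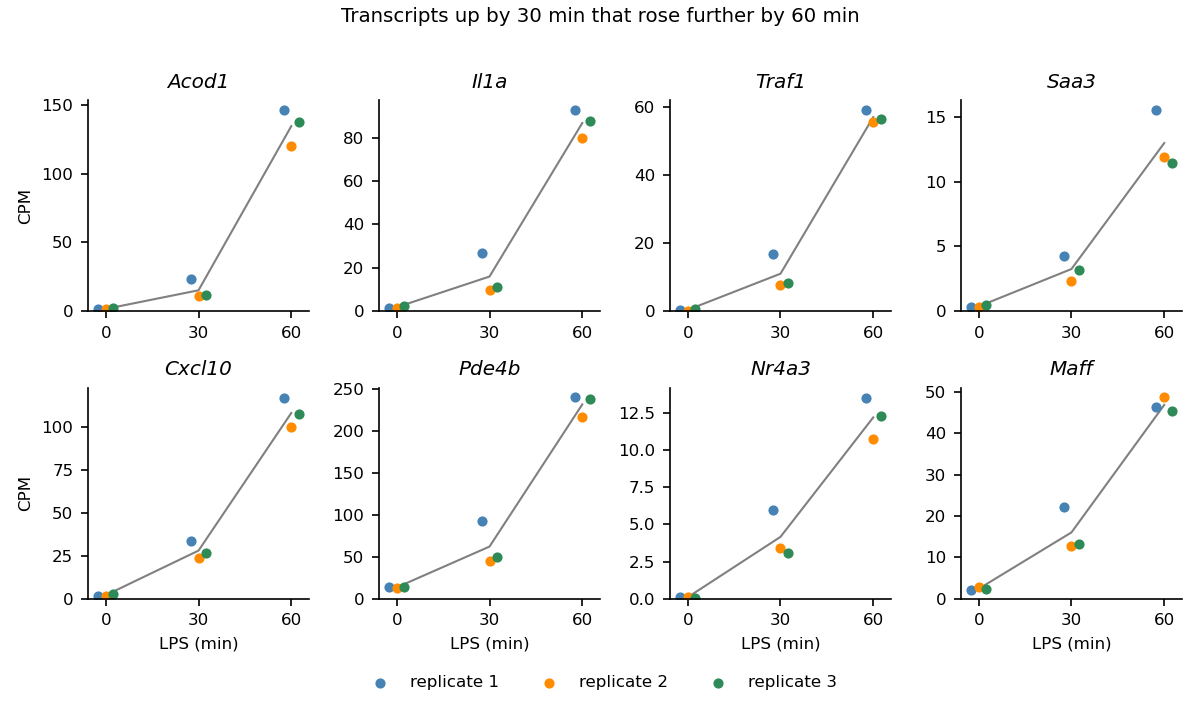
CPM of the 8 protein-coding growing genes with the largest further rise and a mean of at least 5 CPM, in each library (points, coloured by replicate number) at 0, 30 and 60 min of LPS, with grey lines through the means of 3 libraries. In every panel the 60 min libraries lie above the 30 min libraries, and 30 min replicate 1 lies above the other two of its time.

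For the 83 protein-coding growing genes, the median share of the rise from 0 to 60 min that came after 30 min was 57.3%, with a range from 18.7% to 89.8%. In 52 of them more than 50% came after 30 min. The median share was 43.9% when 30 min replicate 1 alone set the middle level, 65.3% with replicate 2 and between these values with replicate 3. The growing genes thus ran from those with most of their rise before 30 min to those with most of it after, and the share depended on which 30 min library was taken.

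The NF-kB list held 24 tested genes, of which 20 rose from 30 to 60 min and 4 (Tnip2, Cyld, Otulin and Traf2) were not called. Its median log2 change was 0.914, against 0.001 over all genes. For comparison with this and the later lists, 8.87% of all tested genes rose and 7.65% fell. The inhibitor gene Nfkbia, whose protein holds NF-kB in the cytoplasm, went from 209, 145 and 149 to 392, 382 and 396 CPM (log2 change 1.22, SE 0.10, edgeR adjusted p = 1.15e-06). The related genes Nfkbie and Nfkbiz rose by 1.37 and 1.34. Tnfaip3, encoding the ubiquitin-editing enzyme A20, rose less, by a log2 change of 0.87 (1.13 without 30 min replicate 1), from 195, 116 and 132 to 252, 277 and 284 CPM. In these 4 genes the 60 min libraries lay above the 30 min libraries, while the inhibitor genes Tnip2, Cyld and Otulin were among those not called.

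Subunits of NF-kB rose in the same interval. Relb, the subunit of the slower pathway, had 7.79, 6.28 and 6.32 CPM at 30 min and 25.6, 21.9 and 22.0 CPM at 60 min (log2 change 1.77, SE 0.10, edgeR adjusted p = 5e-08). Nfkb1, which encodes p105 and p50, was at 97.7, 93.4 and 96.2 CPM at 0 min and 98.8, 97.7 and 95.9 CPM at 30 min, and then at 198, 180.0 and 188 CPM. It rose by a log2 change of 0.95 (SE 0.04, edgeR adjusted p = 4.86e-09) after no call at 30 min. Rel and Nfkb2 rose by 0.83 and 0.99, and Rela, the subunit of the main activating dimer, by 0.44. The adaptors Tnip1 and Tank, which restrain the pathway, rose by 1.21 and 1.07 without an earlier call, Tnip1 from 45.1, 42.6 and 44.2 to 111, 91.6 and 103 CPM.

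The immediate-early transcription factors split. Of 27 tested, 14 rose, 3 fell (Fos, Ier2 and Klf2) and 10 were not called, with a median log2 change of 0.267. Within the AP-1 family, Fos fell, Junb rose from 196, 168 and 169.8 to 305, 299.9 and 278 CPM (log2 change 0.73, edgeR adjusted p = 5.59e-07) and Fosl2 rose by 0.36. Jun had 309.9, 277 and 279 CPM at 30 min and 270.5, 289.7 and 300.1 CPM at 60 min, overlapping groups with a log2 change of -0.01 (SE 0.05, edgeR adjusted p = 0.941). Fosb had 50.5, 45.4 and 45.4 CPM and then 41.2, 41.0 and 41.2 CPM, a difference just short of the threshold (log2 change -0.20, edgeR adjusted p = 0.0644, and 0.0346 with DESeq2). It was called lower in 6 of the alternative analyses, DESeq2 among them, and its edgeR adjusted p was 0.246 without 30 min replicate 1. Within this family, then, in the edgeR fit of all 9 libraries 1 member was called lower, Junb, Jund, Fosl1 and Fosl2 were called higher, and Jun and Fosb were not called.

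Dual-specificity phosphatase Dusp1 (log2 change -0.15, edgeR adjusted p = 0.26), the anti-proliferative gene Btg2 (-0.18, 0.134) and the survival gene Ier3 (-0.10, 0.579) had risen at least 2-fold by 30 min and were not called from 30 to 60 min. Ier3 had 152, 114 and 121 CPM at 30 min and 110.1, 130.2 and 121 CPM at 60 min, an overlap between the groups. Among immediate-early genes that rose, Egr2 (log2 change 0.72), Atf3 (0.16), Nr4a1 (0.28) and Klf10 (0.22) lost their call without 30 min replicate 2. Their edgeR adjusted p was then 0.0646, 0.207, 0.0772 and 0.115, and each also lost the call without at least 2 other libraries.

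Feedback inhibitors moved in both directions. Of 15 tested MAP kinase phosphatases and Sprouty-type inhibitors, 7 rose and 2 fell (Dusp6 and Dusp7), with a median log2 change of 0.236. Dusp16, which acts on JNK and p38, had 38.7, 29.5 and 36.1 CPM at 30 min and 97.6, 92.7 and 95.3 CPM at 60 min (log2 change 1.45, SE 0.07, edgeR adjusted p = 1.59e-08). Dusp5, a nuclear ERK phosphatase, rose from 7.48, 5.97 and 6.03 to 15.5, 15.6 and 16.0 CPM and Dusp4 by a log2 change of 0.67, while the cytoplasmic ERK phosphatases Dusp6 and Dusp7 fell. Dusp8 had the largest rise of the list (6.51-fold), from 1.54, 0.624 and 0.831 to 5.47, 6.92 and 7.16 CPM.

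Of 16 tested regulators of mRNA decay, 3 rose, 3 fell and 10 were not called (median log2 change 0.03). The RNase genes Zc3h12a (Regnase-1) and Zc3h12c rose by 1.28 and 1.44, the latter from 38.6, 33.9 and 35.3 to 103, 91.0 and 98.3 CPM, while Zfp36 fell. The falls of Tob1 and Tob2 were small (log2 changes -0.25 and -0.11) and were not called by DESeq2 (adjusted p = 0.0649 and 0.0603). Their edgeR calls were also lost on omission of replicate 2 at 30 min (0.0962 and 0.0715) or of replicate 1 (0.061 and 0.0792) or 3 (0.0636 and 0.0698) at 60 min. Of 13 tested SOCS and related inhibitors 5 rose and 2 fell, the latter being Rgs1 and Rgs2. Socs3, the brake on interleukin-6 signalling, rose from 99.3, 67.5 and 67.5 to 136, 139.9 and 138 CPM (log2 change 0.82, and 1.03 without 30 min replicate 1).

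Of 22 tested cytokine genes, 11 rose, Osm fell and 10 were not called, with a median log2 change of 0.498. Under the alternative analyses 8 to 12 rose, and the calls of Il10, Csf2 and Ebi3 were lost in 5, 6 and 6 of them. Tnf had 446, 279 and 298 CPM at 30 min and 516, 582 and 581 CPM at 60 min, so that even its highest 30 min library lay below the 60 min range (log2 change 0.71, SE 0.13, edgeR adjusted p = 0.00134, and 0.96 without 30 min replicate 1). Il1b rose from 69.2, 27.5 and 33.5 to 126, 90.8 and 108 CPM (log2 change 1.32, and 1.83 without 30 min replicate 1). The interleukin-1 receptor antagonist gene Il1rn rose by 1.10. Csf3, encoding granulocyte colony-stimulating factor, was near the limit of detection at 30 min (0.0350, 0.104 and 0.144 CPM) and had 1.82, 1.12 and 1.94 CPM at 60 min. Il6 (log2 change 0.50, edgeR adjusted p = 0.219) and Lif (0.22, 0.659) were below 4 CPM, and their groups overlapped.

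Of 12 tested chemokine genes 8 rose and 4 were not called (median log2 change 0.55). Under the alternative analyses 6 to 8 rose, and the calls of Ccl9 and Ccl5 were lost in 7 and 2 of them. The neutrophil chemokine gene Cxcl2 went from 186, 119.6 and 129 to 241, 277 and 261 CPM (log2 change 0.84, and 1.07 without 30 min replicate 1) and the chemokine gene Ccl4 from 13.2, 11.4 and 12.2 to 25.1, 23.6 and 24.5 CPM (0.99). Ccl3 rose less, by 0.44. Among 31 tested chemokine and cytokine receptor genes 13 rose, 3 fell and 15 were not called (median log2 change 0.119). The falls were 9.68% of this list, near the 7.65% of all tested genes. The receptors for tumour necrosis factor diverged, with Tnfrsf1b rising from 33.5, 28.8 and 32.4 to 64.4, 54.4 and 59.7 CPM (log2 change 0.91) and Tnfrsf1a falling from 69.5, 71.5 and 72.4 to 58.7, 62.1 and 62.9 CPM (-0.22). Both chains of the interleukin-6 receptor fell slightly, Il6ra by 0.31 and Il6st by 0.20 on the log2 scale.

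Of 36 tested genes of the Toll-like receptor pathway 15 rose, 3 fell and 18 were not called (median log2 change 0.093). The falls were 8.33% of this list, near the 7.65% of all tested genes. The LPS receptor gene Tlr4 itself had 93.8, 93.6 and 91.7 CPM at 30 min and 88.3, 84.2 and 80.8 CPM at 60 min and was just short of a call (log2 change -0.14, edgeR adjusted p = 0.052). Tlr2, the receptor for bacterial lipoproteins, rose from 229.5, 175 and 187 to 413, 373 and 389.8 CPM (0.99), and Cd14 by 0.61. The TRAM adaptor gene Ticam2 fell by 0.26. The count of falls was 1 without 30 min replicate 2. It was 5 without 0 min replicate 2 or 0 min replicate 3, and 6 when libraries were scaled by total counts.

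Inflammatory effectors formed the list with the highest share of rises, 35 of 39 tested, with 1 fall and a median log2 change of 0.95. The fall was in Ptgir, the prostacyclin receptor gene (log2 change -0.25). The adhesion molecule gene Icam1 went from 77.4, 50.2 and 54.4 to 174, 159.7 and 161 CPM (1.44), the co-stimulatory gene Cd83 from 124, 74.5 and 85.0 to 207, 206 and 194 CPM (1.10) and the antioxidant gene Sod2 from 232, 194 and 201 to 323, 317 and 296 CPM (0.58). Ptgs2, the inducible cyclooxygenase, rose by 0.48 and Nos2, the inducible nitric oxide synthase, rose 3.5-fold at a low level, to 2.14, 1.25 and 1.46 CPM.

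Of 31 tested interferon and interferon-stimulated genes, 2 rose, 4 fell and 25 (80.6%) were not called, near the 83.5% not called over all tested genes, with a median log2 change of -0.055. The rises were in the transcription factors Irf1, from 44.7, 28.6 and 29.1 to 88.1, 77.8 and 80.7 CPM (log2 change 1.27), and Irf5 (0.21). Stat2, a part of the interferon-activated complex ISGF3, fell from 10.9, 11.4 and 11.4 to 7.33, 6.68 and 7.03 CPM (-0.68, SE 0.08, edgeR adjusted p = 2.81e-05), and Irgm1 and Irf8 fell by 0.45 and 0.21. The interferon-beta gene Ifnb1 had too few counts to be tested. Of 26 tested inflammasome and cell-death genes 8 rose, 1 fell and 17 were not called, beside 8.87% higher and 7.65% lower over all tested genes. The rises included the sensor gene Nlrp3 (log2 change 1.09, 134, 93.8 and 106 to 243, 227 and 241 CPM) and the caspase-8 inhibitor gene Cflar (1.34). Casp1 was not called (-0.08, edgeR adjusted p = 0.46).

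**Figure D3:**
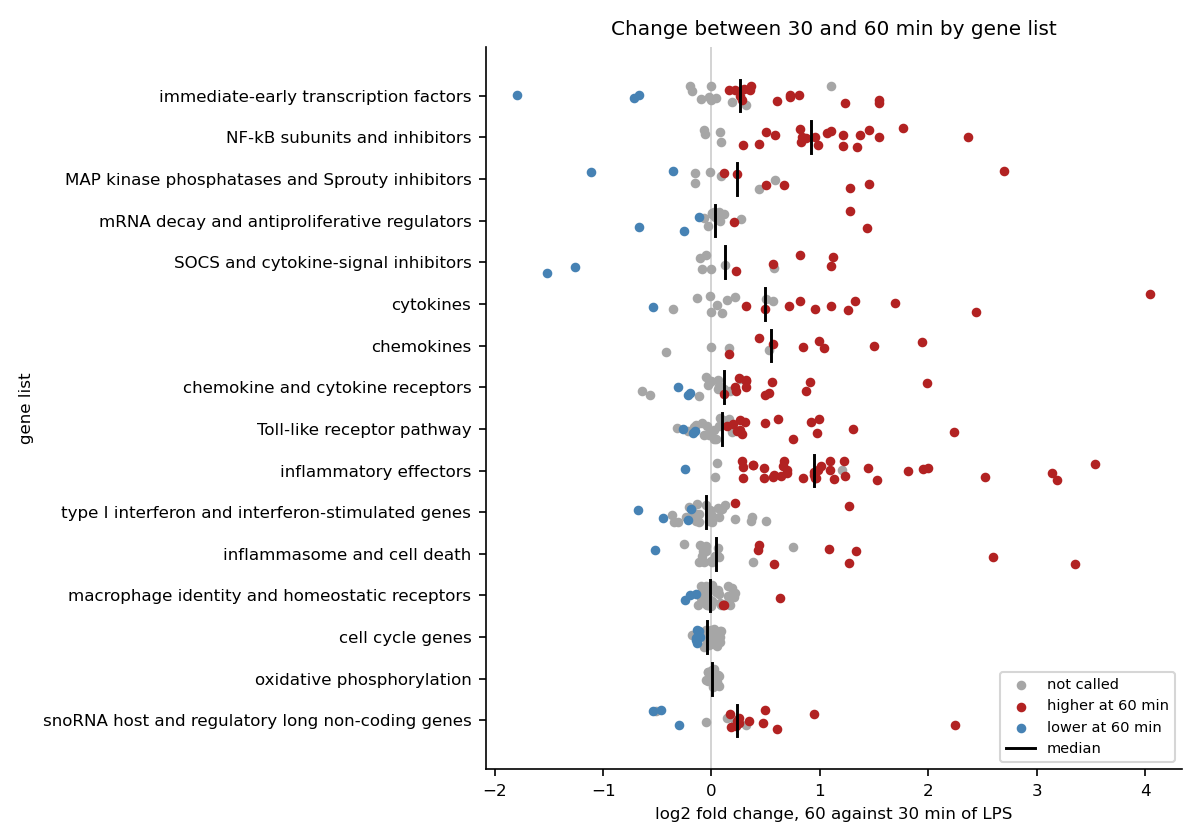
Log2 change at 60 against 30 min of LPS (x axis) of each tested gene of 16 gene lists (rows), with genes called higher in red, called lower in blue and not called in grey, and black bars at the list medians. The NF-kB list and the inflammatory effectors lie mostly right of 0, with medians of 0.914 and 0.95, and the interferon list lies around 0, with a median of -0.055.

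The 136 second-step genes had a median log2 change of 0.114 in the first 30 min and 1.386 in the next. The 60 min libraries lay above the 30 min libraries in all 136, against 17.1% of all tested genes. These values follow largely from the rule that chose the genes and describe the set only. Rab11fip1, a partner of the recycling-endosome GTPase Rab11, had 29.7, 31.1 and 29.9 CPM at 0 min and 45.8, 33.8 and 30.1 CPM at 30 min. At 60 min it had 146, 127 and 139 CPM, 3.75 times the 30 min mean (log2 change 1.91, SE 0.10, edgeR adjusted p = 4.97e-08). Icosl, the ligand of the T-cell co-stimulator ICOS, had 8.14, 6.35 and 7.22 CPM at 30 min and 25.4, 21.0 and 23.6 CPM at 60 min (log2 change 1.69, SE 0.10, edgeR adjusted p = 5.59e-08). Neither gene had 30 and 60 min values that came near each other.

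Bbs10, which encodes a chaperonin-like protein of cilium assembly, had 5.61, 5.90 and 5.48 CPM, then 5.38, 6.76 and 5.63 CPM, then 17.8, 15.9 and 17.8 CPM (60 against 30 min: log2 change 1.53, SE 0.09, edgeR adjusted p = 7.69e-08). Irak2, the kinase that sustains signalling below Myd88, had 13.4, 12.5 and 13.2 CPM and then 34.1, 30.9 and 31.7 CPM (2.47-fold, edgeR adjusted p = 1.81e-08). Casp4, the caspase that senses LPS in the cytosol, had 6.71, 6.70 and 5.24 CPM and then 16.7, 13.1 and 15.1 CPM (log2 change 1.27). In these 3 genes the 60 min libraries lay above every 30 min library, after a first interval in which the genes were not called.

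Ell2, an elongation factor of RNA polymerase II, had 57.1, 66.6 and 59.1 CPM at 0 min, 66.4, 56.8 and 59.0 CPM at 30 min and 144, 133 and 148 CPM at 60 min (60 against 30 min: log2 change 1.22, SE 0.06, edgeR adjusted p = 3.73e-08). Trim13, a ubiquitin ligase of the endoplasmic reticulum, rose by 1.39 and Gsap, named for its binding to gamma-secretase, by 1.32. Within the tested list of chromatin and elongation regulators, 7 of 25 rose, Ep300 fell and 17 were not called, with a median log2 change of 0.036. Falls in this list numbered 0 to 4 under the alternative analyses. The largest rise beside Ell2 was that of the demethylase gene Kdm6b, from 99.0, 69.2 and 72.7 to 178, 172 and 175 CPM (1.12). At a lower level, the death receptor gene Fas was at 0.280, 0.139 and 0.361 CPM at 30 min and at 3.65, 1.83 and 2.58 CPM at 60 min, a 10.2-fold step. The adhesion molecule gene Vcam1 had 0.105, 0.139 and 0.0361 CPM and then 1.02, 0.712 and 0.950 CPM.

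**Figure D4:**
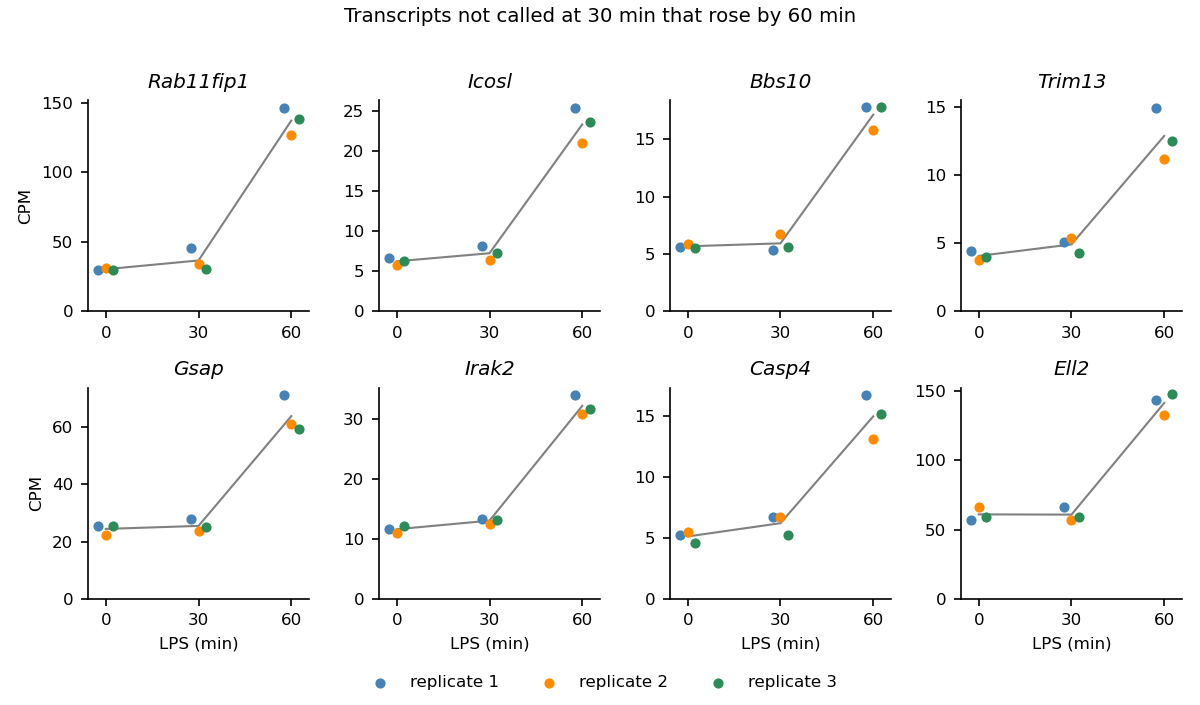
CPM of the 8 protein-coding second-step genes with the largest rise and a mean of at least 5 CPM, in each library (points, coloured by replicate number) at 0, 30 and 60 min of LPS, with grey lines through the means of 3 libraries. In each panel all 3 libraries at 60 min lie above those at 0 and 30 min. In Rab11fip1, 30 min replicate 1 lies well above the 0 min libraries.

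Short-lived growth and signalling regulators followed the inflammatory lists, with 21 of 34 tested genes higher, 3 lower and a median log2 change of 0.391. The falls were in Arrdc3 (log2 change -0.77), Hes1 (-0.74) and Tsc22d3 (-0.53). Hes1, a repressor of the Notch pathway, had risen from 2.13, 2.14 and 2.04 to 3.84, 4.41 and 3.47 CPM at 30 min and was at 1.89, 2.61 and 2.48 CPM at 60 min. Of 24 tested ETS, C/EBP and MAF-type factors 8 rose, among them Ets2 (0.67) and Cebpb (0.42), and 3 fell (1 on omission of replicate 3 at 30 min, or of replicate 1 or 2 at 60 min).

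In the lists of general cell state the median log2 change lay between -0.042 and 0.022. Of 17 tested Nrf2-target antioxidant genes 4 rose and 1 fell (29.4% called, against 16.5% of all genes tested). Of 11 tested heat shock genes 1 fell (9.09%, near the 7.65% of all genes). Of 40 tested macrophage identity genes 34 were not called (85.0%, against 83.5% of all genes tested), and the 3 rises and 3 falls included Stab1, a scavenger receptor gene (log2 change 0.63, 45.6, 47.6 and 50.3 to 74.0, 74.4 and 73.3 CPM), and Fcgr1 (-0.20). Both counts fell to 1 under some omissions, the rises when replicate 1 or 2 at 30 min or replicate 2 at 60 min was left out, and the falls when replicate 3 at 30 min or replicate 1 or 2 at 60 min was. Calls were made for 6 of 28 tested glycolysis and hypoxia genes (21.4%). They were also made for 4 of 21 unfolded-protein-response genes (19.0%) and 4 of 21 cholesterol genes (19.0%). With lists this small, these shares are near the 16.5% of all genes tested. Under total-count scaling 1 macrophage identity gene and 1 cholesterol gene rose (3 and 2 by TMM), while 4 unfolded-protein-response and 4 cholesterol genes fell (2 each by TMM). Without 30 min replicate 1 the cholesterol list also held 1 rise. Among the called genes were the cystine transporter gene Slc7a11 (log2 change 0.94, 85.4, 74.5 and 78.7 to 165, 148 and 146 CPM) and the cholesterol exporter gene Abca1 (0.88, 288, 265 and 264 to 536, 472 and 499 CPM). None of the 20 tested oxidative phosphorylation genes was called by edgeR, DESeq2 called 0, and the unadjusted edgeR p was under 0.05 for 0. Of 30 cell cycle genes 7 were lower (23.3%, against 7.65% of all genes), by small steps such as -0.14 for the spindle motor gene Kif11, and the count was 2, 4, 1, 3 and 4 without 30 min replicate 2 or 3 or 60 min replicate 1, 2 or 3.

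The list of small nucleolar RNA host genes and other regulatory non-coding genes held 20 tested members. At 30 against 0 min 6 of them were lower and 4 higher, beside 3.35% and 4.84% of all tested genes. The host gene Zfas1 had 80.4, 88.2 and 86.6 CPM at 0 min, 49.6, 48.4 and 49.5 CPM at 30 min and 74.3, 68.3 and 64.7 CPM at 60 min. Its level at 60 min lay between those of the other times, with no overlap (60 against 30 min: log2 change 0.49, SE 0.05, edgeR adjusted p = 1.19e-05). Snhg12 went from 16.1, 13.5 and 14.2 to 22.3, 23.1 and 21.0 CPM (0.60). Of the 20 genes 12 rose and 3 fell from 30 to 60 min, and 7 rose with total counts as the only scaling, without 30 min replicate 2 or without 60 min replicate 1. Neat1, the scaffold of nuclear paraspeckles, ran the other way, from 2769, 2547 and 2879 CPM to 4065, 4015 and 4095 CPM and back to 2934, 3054 and 2818 CPM (60 against 30 min: log2 change -0.47, SE 0.05, edgeR adjusted p = 9.94e-06). Mir155hg, the precursor of the inflammatory microRNA miR-155, rose from 1.92, 0.763 and 0.939 to 5.89, 5.66 and 5.74 CPM (2.25).

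Many of the at least 2-fold changes at non-coding loci (those not annotated as protein-coding) lay inside introns of coding genes on the same strand. Among the 98 non-coding loci that fell, 68 lay wholly in introns (69.4%), and among the 108 that rose, 59 did (54.6%), against 1112 of all 2933 tested non-coding loci (37.9%). The host gene was called in the direction of the locus for 24 of the 66 rising loci inside coding genes and for 11 of the 70 falling ones, and in the opposite direction for 2 and 7 of them. The median log2 change was 1.36 for the rising loci against 0.0944 for their hosts, and -1.38 for the falling loci against -0.0532 for theirs. Whether such a locus has a transcript of its own or counts unspliced RNA of its host cannot be told apart in libraries of total RNA, and the strand setting of the counting is not given in the sources used here. The loci were examined by their distance from the host's start after their values had been seen.

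The direction of change varied with that distance. This was examined for the 1078 tested intronic loci whose host gene was itself tested, in 748 hosts. Over all 1078, 169 rose and 161 fell. Within 10 kb of the host's 5' end began 209 loci, and of these 57 rose (27.3%) and 14 fell (6.7%). From 10 to 30 kb 52 of 272 rose (19.1%) and 30 fell (11.0%), and from 30 to 60 kb 32 of 218 rose (14.7%) and 37 fell (17.0%). From 60 to 100 kb the order was turned, with 12 of 139 higher (8.63%) and 49 lower (35.3%), and beyond 100 kb 16 of 240 were higher (6.67%) and 31 lower (12.9%). The median log2 change in these 5 ranges was 0.27, 0.13, 0.02, -0.42 and -0.12. The loci that rose at least 2-fold lay at a median of 27.9 kb and those that fell at least 2-fold at 64.5 kb. At 30 against 0 min, 20 loci of the nearest range were higher and 49 lower, and of the 60 to 100 kb range 5 were higher and 1 lower. Over all tested genes 4.84% were higher and 3.35% lower at that step. Loci of a host share its transcription, and the 2 comparisons share the 30 min libraries, so these counts are a description.

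Single hosts with several loci differed in how the changes were ordered along the gene. In Camk2d (chr3:126596302-126846326, plus strand), a kinase gene of 250 kb whose own count was not called (log2 change 0.04, edgeR adjusted p = 0.591), Gm43011 lies 3.7 kb from the start. It had 20.3, 21.7 and 19.3 CPM at 0 min, 38.0, 32.6 and 32.4 CPM at 30 min and 93.8, 87.5 and 95.4 CPM at 60 min. Its log2 change at 60 against 30 min was 1.42, and the loci Gm43010 at 29.6 kb, Gm43009 at 48.2 kb, Gm43006 at 61.4 kb and Gm43005 at 66.1 kb had 1.70, 1.78, 2.13 and 1.77. Farther on, Gm42515 at 141.2 kb had 0.45 and Gm42514 at 149.8 kb had 0.27, the last not called. The large steps thus lay in the first 66.1 kb of the gene.

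In Cers6, a ceramide synthase gene of 253 kb, 6 loci ran from a log2 change of 1.26 at 29.9 kb through 1.15 at 44.6 kb, 0.60 at 100.8 kb and 0.23 at 127.9 kb to -0.35 at 152.2 kb and -0.60 at 156.7 kb, where those at 127.9 and 152.2 kb were not called. In Picalm, a clathrin-assembly gene of 83.3 kb, Gm45223 at 2.3 kb had 9.72, 12.4 and 12.8 CPM at 0 min, 33.9, 34.3 and 33.3 CPM at 30 min and 17.4, 16.9 and 14.1 CPM at 60 min. This fall (log2 change -1.07) and that of Gm45222 at 15.7 kb (-1.03) stood beside changes of 0.34 at 55.7 kb and 0.42 at 71.1 kb, neither called. In the protein kinase C gene Prkcb, 3 loci between 24.3 and 113.7 kb fell by log2 changes of -1.87, -1.58 and -1.43, while one at 174.7 kb had 0.23 and was not called. These Prkcb loci were at low levels, with means over all 9 libraries of 2.93, 0.43, 0.70 and 0.88 CPM in the same order. Of 14 hosts with at least 2 loci changed at least 2-fold in the same direction, 6 had rising and 8 falling loci.

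**Figure D5:**
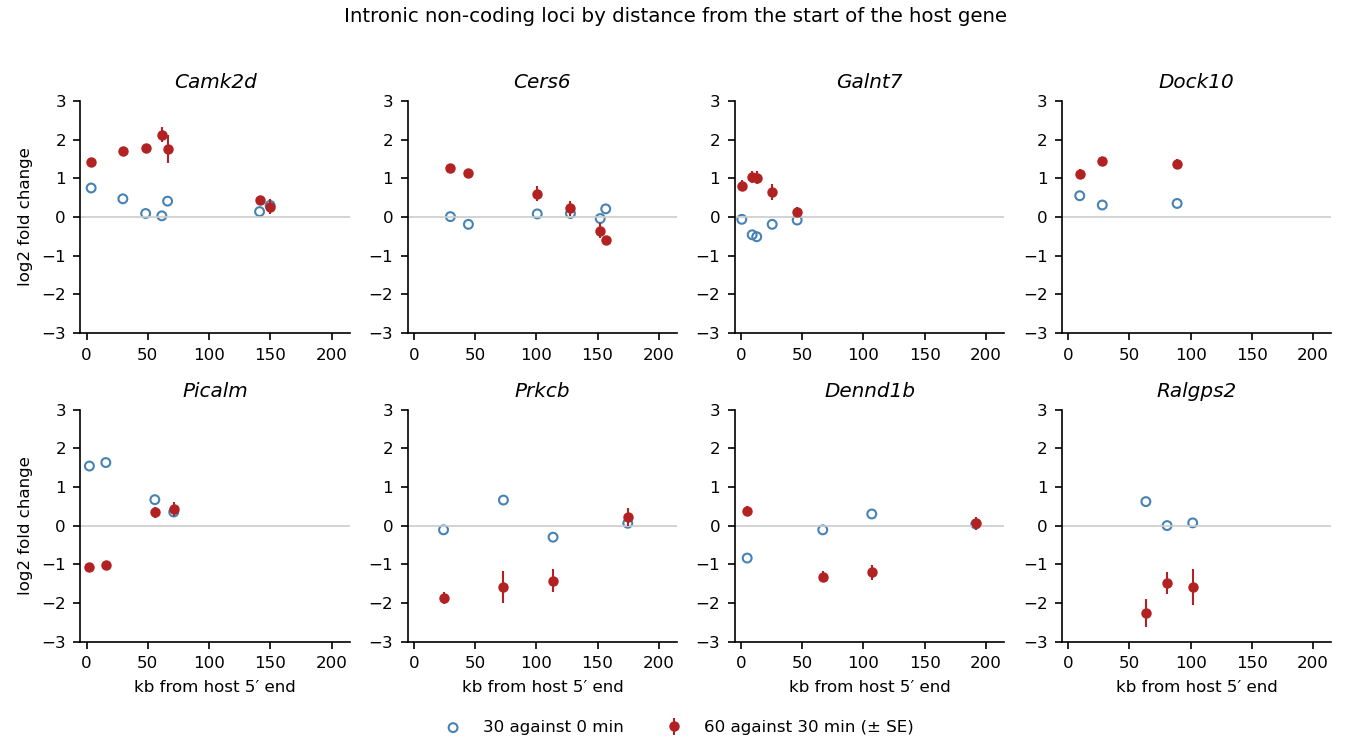
Log2 change of intronic non-coding loci (y axis) by distance in kb from the 5' end of the host gene (x axis) in 8 hosts, with filled red points and SE bars for 60 against 30 min and open blue points for 30 against 0 min. In Camk2d and Cers6 the changes at 60 against 30 min are highest within the first 66.1 kb and smaller farther on, and in Picalm the 2 loci nearest the start are high at 30 against 0 min and below 0 at 60 against 30 min.

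Gm37589, an intronic locus 62.9 kb into the splicing-factor gene Mbnl1, had the largest fall among non-coding loci with a stable call and a mean of at least 5 CPM. It had 35.5, 44.4 and 39.0 CPM at 0 min, 44.9, 42.9 and 42.5 CPM at 30 min and 9.57, 8.65 and 7.70 CPM at 60 min (60 against 30 min: log2 change -2.33, SE 0.09, edgeR adjusted p = 2.4e-09), while Mbnl1 had a log2 change of -0.10. In 3 shut-off loci the host gene rose while the locus fell. These were Gm37347 in the decoy receptor gene Il1r2 (locus -4.09, host 1.99), Gm44292 in Mxd1 (locus -2.19, host 0.36) and Gm17024 in Ifrd1 (locus -1.24, host 0.22). The small nuclear RNA loci Gm23804, Rnu1a1 and Gm22634 had identical values, as copies that share reads can, varied from 0.0339 to 10.2 CPM within the 60 min group, and were not called by DESeq2 (adjusted p = 0.249). The edgeR call was lost on omission of replicate 3 at 30 min (0.108) or of replicate 1 (0.0962) or 2 (0.0571) at 60 min.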

How the data were processed

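Total RNA libraries of 3 times (0, 30 and 60 min of LPS, 3 each) were analysed from the table of expected counts per gene, estimated and deposited by the authors with RSEM and not normalized. Build mm10 and the programs STAR 2.7.0f, RSEM 1.3.1, DESeq2, Picard 2.18.26, cutadapt 1.18 and bcl2fastq 2.20 are named in the submitters' processing notes. The sources used here do not give their settings, the annotation or the strandedness of counting. Since RSEM divides reads shared by copies, values of near-identical or overlapping genes are uncertain. Counts were rounded (5.04% to 5.32% of values per library were not whole, to a tolerance of 1e-06), and 31265 of 55450 genes then had 0 in every library.

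Genes were kept by filterByExpr (minimum count 10), leaving 14246 genes, scaled by TMM (factors 0.9705 to 1.0344) and tested in a single fit of all 9 libraries with edgeR 4.0.16 in R 4.3.3, with time as the only term, two-sided, at an adjusted p under 0.05. Each SE was taken as the size of the log2 change divided by the root of its F statistic. The common dispersion was 0.0027 (a coefficient of variation of 5.2%); p-values measure the spread between these libraries, which only the labels call biological. The script was checked on simulated counts. Replicate pairs differed by more than counting noise (mean chi-square per gene 4.93 to 18.3). Annotation was GENCODE M21 (GRCm38) and, for promoters, RefSeq. Sequence features were computed in Python 3.11.15. Alternatives were DESeq2 1.42.0, total-count scaling, no filter, a minimum count of 50, only the 30 and 60 min libraries, a replicate block and leaving out each library.

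Named genes were the 15 largest rises and falls among called coding genes with a mean of at least 5 CPM and no overlap between times, the 8 largest of each course, the 4 largest non-coding loci per direction, and listed genes (up to 4 called per direction, and every member of the immediate-early, NF-kB, cytokine and chemokine lists). March4, Fas, Vcam1, Tlr4, Casp1, genes below 5 CPM and intronic loci outside this rule were chosen after their values were seen, as were the TGACGT and TATAAA motifs and the ranges of distance. Members and lists were chosen with earlier results of these data known.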

Additional observations from a re-analysis of the deposited data

Results flagged for a closer look

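In 12 genes the 30 and 60 min libraries were called on opposite sides of 0 min, and the difference between 60 and 30 min was itself called by edgeR. Of these, 6 were above 0 min at 30 min and below it at 60 min, with log2 changes at 60 against 30 min of -1.26 for Rgs2, -0.52 for Hist1h4j, -0.42 for Hist3h2a, -0.45 for Hist1h3f, -1.23 for Gm38292 and -1.23 for Gm37023. Reads of histone genes can be shared among near-identical copies. The other 6 were below 0 min at 30 min and above it at 60 min, with log2 changes of 0.49 for Ggct, 0.38 for Fastkd3, 0.78 for Gm29666, 0.57 for Gm44260, 1.02 for 5830462O15Rik and 0.97 for Gm47920. Ggct, an enzyme of glutathione turnover, had 16.6, 14.6 and 14.8 CPM at 30 min and 23.1, 20.8 and 21.0 CPM at 60 min.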

How the results depend on the processing

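Of the 8 counts of genes (higher, lower, both at least 2-fold, and the 4 courses), most stayed within 1.5 times under the alternatives. With total counts as the only scaling 1672 genes were lower, the median log2 change of all genes having moved below 0. Without a filter on low counts 55 genes were shut off, and with a minimum count of 50, which leaves fewer genes to test, 147 genes rose and 59 fell at least 2-fold, 68 were second-step and 40 were late falls. Leaving out each library in turn gave 921 to 1338 genes higher, 730 to 1159 lower, 194 to 272 and 100 to 118 changed at least 2-fold, 25 to 34 shut off, 86 to 90 growing, 111 to 164 second-step and 78 to 98 late falls. DESeq2 called 1162 higher and 883 lower. No value changed direction past a call. Intronic loci rising within 10 kb numbered 40 to 67 and those falling at 60 to 100 kb 32 (minimum count of 50) to 55.

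Same-numbered libraries of 30 and 60 min did not deviate together (correlations -0.023, -0.022 and -0.064). With 3 libraries per time this cannot tell whether a number marks a shared culture or day, which no label states. With the replicate block 1156 genes were higher and 952 lower, 225 and 106 at least 2-fold, and 9 of 217 named genes lost their call. Of the 217, DESeq2 lost 10, total counts 9 and a library left out 1 to 26. Genes below about 1 CPM rest on few counts, and only 3 libraries per time limit small changes.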
